A study of Mus musculus with 96 samples.

Results

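The first hours of darkness were examined in the back-skin epidermis of mice that carry the clock gene Arntl in brain and epidermis (RERE), in epidermis (EpiRE), in brain (BRE) or in all tissues (WT). In each genotype, RNA from 4 mice at zeitgeber time 16 (ZT16) was set against RNA from 4 mice at ZT12, the time of lights off, and the resulting 4 steps were then compared with each other across genes. The comparison takes 32 of the 96 libraries, chosen by their time label alone, and each library is 1 male C57BL/6 mouse aged 8 weeks, fed chow without restriction under 12 h of light and 12 h of dark. Arntl encodes BMAL1, the activator without which the mammalian clock stops. RERE, EpiRE and BRE mice share the genotype Arntl stopFL/stopFL, a stop cassette in both copies that Cre removes. RERE mice are also K14Cre tg/wt with Syt10-Cre tg/wt, and have the gene reconstituted in brain and epidermis. EpiRE mice are K14Cre tg/wt, with Syt10-Cre absent (wt/wt), and have it in epidermis. BRE mice lack K14Cre (wt/wt), are Syt10-Cre tg/wt, and have it in brain. WT mice are Arntl wt/wt and carry both transgenes as well, as K14Cre wt/tg and Syt10-Cre tg/wt. K14Cre follows the keratin 14 promoter of keratinocytes, so other cells of the epidermis, such as T cells and Langerhans cells, are not reached by it directly.

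In the clock, BMAL1 with CLOCK or NPAS2 switches on its own repressors, the Per and Cry genes and Ciart, together with the nuclear receptors Nr1d1 and Nr1d2, which repress Arntl, and the transcription factor Dbp, which carries the rhythm to other genes. In mice the hours after lights off bring activity, feeding, a rise in body temperature and the fall of corticosterone from its peak near dusk, so epidermis at this time meets signals from its own clock and from the body. Epidermal stem cells are also known to divide at a preferred time of day.

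Values are RPKM (reads divided by transcript length in kilobases and by library depth) on a log2 scale, and a step is the mean log2 value at ZT16 minus that at ZT12, given with its standard error (SE). Estimated depth of the 32 libraries ran from 12.1 to 20.8 M reads, with a median of 15.98 M. Steps were tested with limma in 12144 genes, and a gene was called at a Benjamini-Hochberg adjusted p below 0.05 over all of them. A step difference is the step of one genotype minus that of another. The 12 basal keratinocyte genes summed to 10920 RPKM or more in each library, and the 6 endothelial and 6 adipocyte markers were below 1 RPKM in all 8 groups. Markers of T cells, Langerhans cells, melanocytes and hair summed to at most 137 RPKM per list in any library, and muscle genes summed to 31.9 to 53.9 RPKM. Blood genes summed to 16.8 to 192 RPKM in the WT mice at ZT16, against 7.58 to 24.8 RPKM in the WT mice at ZT12, and their part in the WT steps was not tested. The labels do not say that mice of a group came from separate litters or cages, so p-values measure the spread between these mice.

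The step was small in number of genes in the 3 reconstituted genotypes and broad in WT. In RERE 88 genes were called, which is 0.725% of those tested, 51 higher and 37 lower at ZT16. In EpiRE 14 genes were called (0.115%), 1 higher (0.00823%) and 13 lower. In BRE 235 genes were called (1.94%), 93 higher and 142 lower (1.17%). In WT 1885 genes were called (15.5%), 1183 higher (9.74%) and 702 lower (5.78%). The 4 ZT16 and 4 ZT12 values did not overlap in 9.15% of tested genes in RERE, 9.13% in EpiRE, 7.15% in BRE and 19.7% in WT. The spread between mice was similar, with a median residual SD over 8294 well expressed genes of 0.136 in RERE, 0.126 in EpiRE, 0.137 in BRE and 0.132 in WT (log2), while the median size of the step was 0.088, 0.095 and 0.098 in the 3 reconstituted genotypes and 0.147 in WT. At an unadjusted p below 0.05 the counts were 1600 in RERE, 1838 in EpiRE, 2018 in BRE and 3933 in WT.

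These counts depend on single libraries and on the spread estimate. The count in RERE was 10, that in EpiRE and BRE 0, and that in WT 1094 when limma took the spread from the 8 libraries of the step alone. At an unadjusted p below 0.05 that fit held 1901 genes in EpiRE and 1559 in BRE. Leaving out 1 mouse moved the RERE count to 31 or 23 (ZT16 mouse 1 or 4), 58 (ZT16 mouse 3) and 25, 23 or 27 (ZT12 mouse 2, 3 or 4). The EpiRE count became 9, 1 or 1 without ZT16 mouse 2, 3 or 4, 6, 3 or 1 without ZT12 mouse 1, 2 or 3, and 42 without ZT12 mouse 4. The BRE count became 115 or 54 without ZT16 mouse 2 or 3 and 397, 114 or 95 without ZT12 mouse 2, 3 or 4. The WT count became 1071 without ZT16 mouse 4 and 993 or 1027 without ZT12 mouse 1 or 3. Each of the WT counts stayed above every count of the other genotypes.

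The excess of higher over lower genes in WT was not seen under another scaling. After rescaling each library by the median of ratios, 899 genes were higher and 912 lower in WT, 78 higher and 48 lower in RERE, 0 higher and 5 lower in EpiRE, and 93 higher and 164 lower in BRE. The median step over all tested genes was 0.046 in WT before rescaling.

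**Figure D1:**
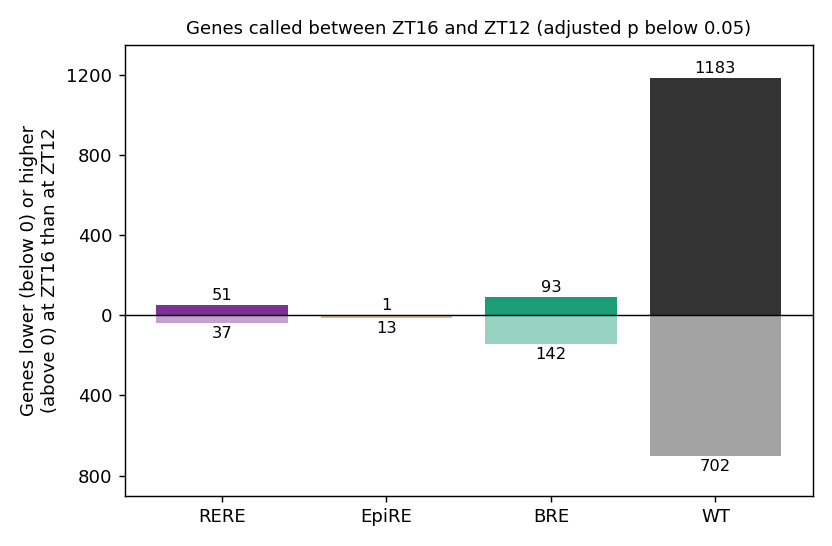
Genes called between ZT16 and ZT12 in each genotype; bars above 0 count genes higher at ZT16 and bars below 0 genes lower at ZT16 (4 mice per time). WT has 1183 higher and 702 lower genes, and no other genotype passes 142 in either direction.

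Some called genes were shared between genotypes. Of the 88 genes called in RERE, 43 (48.9%) were also called in WT, which is 2.28% of the WT genes, and all 43 moved in the same direction. Of the 235 genes called in BRE, 43 (18.3%) were also called in WT, 39 in the same direction and 4 in the opposite one. The BRE share is close to the 15.5% of all tested genes that were called in WT. RERE and BRE shared 13 genes, 14.8% of the RERE list and 5.53% of the BRE list, and all 13 moved together. None of the 14 EpiRE genes was called in another genotype. Across all 12144 genes the Pearson correlation of the steps was 0.48 between RERE and BRE, 0.44 between RERE and WT, 0.41 between EpiRE and WT, 0.23 between BRE and WT, 0.20 between RERE and EpiRE and 0.16 between EpiRE and BRE. Each step has its own 8 mice, so no samples are shared between these pairs, but genes are not independent and these values are a description. The 5 genes called in 3 genotypes, always RERE, BRE and WT, were Fam83g, Rab8a, St13, Ppp4r1l-ps and Rbm3.

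**Figure D2:**
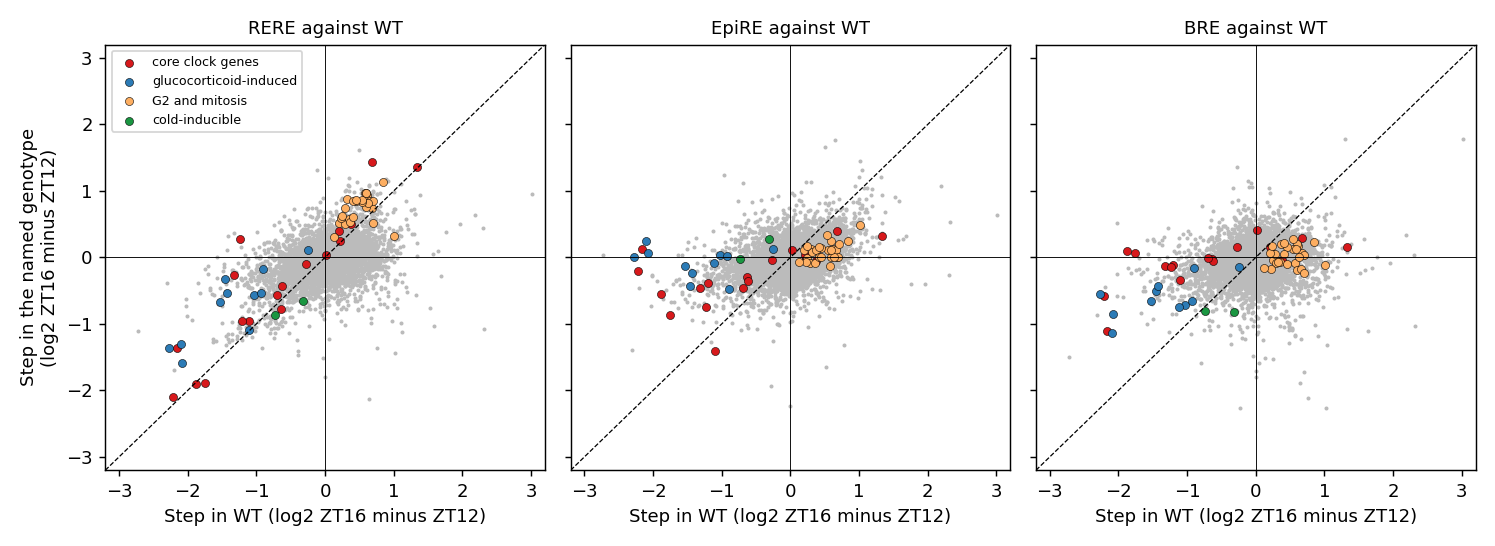
Step of each tested gene (log2 ZT16 minus ZT12) in RERE, EpiRE and BRE on the vertical axis against the step in WT on the horizontal axis, with 4 gene groups in colour and the line of equal steps dashed; 3 points lie outside the axes. Clock genes follow the dashed line in RERE and lie nearer to the horizontal 0 line in BRE, while the 2 cold-inducible genes are below 0 in RERE and BRE.

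Clock genes changed in RERE and WT, and none of the 18 tested passed the test in EpiRE or BRE. Arntl itself was 17.003, 16.1, 12.6 and 13.3 RPKM in the ZT16 RERE mice, against 6.91, 5.76, 4.77 and 5.55 RPKM in the ZT12 RERE mice. It was 13.5, 10.3, 20.5 and 15.5 RPKM in the ZT16 EpiRE mice, against 9.896, 13.9, 9.78 and 13.3 RPKM in the ZT12 EpiRE mice. It was 13.4, 12.4, 13.4 and 14.2 RPKM in the ZT16 BRE mice, against 11.7, 11.6, 13.2 and 11.4 RPKM in the ZT12 BRE mice, and 13.9, 14.2, 13.5 and 12.2 RPKM in the ZT16 WT mice, against 5.05, 6.26, 4.69 and 5.39 RPKM in the ZT12 WT mice. The ZT16 and ZT12 mice did not overlap in RERE and WT, and they overlapped in EpiRE and BRE, where no ZT12 mouse was below 9.78 RPKM. The log2 steps were 1.36 ± 0.13 (SE, adjusted p = 3.1e-05) in RERE, 0.33 ± 0.18 (SE, adjusted p = 0.40) in EpiRE, 0.16 ± 0.06 (SE, adjusted p = 0.13) in BRE and 1.34 ± 0.12 (SE, adjusted p = 4.7e-06) in WT. The step in EpiRE minus that in WT was -1.01 ± 0.19 (SE, adjusted p = 0.0034), and BRE minus WT was -1.17 ± 0.19 (SE, adjusted p = 9.1e-05). Against RERE, the difference was -1.04 ± 0.19 (SE, adjusted p = 0.0057) for EpiRE and -1.201 ± 0.19 (SE, adjusted p = 0.00015) for BRE. RERE minus WT was 0.03 ± 0.19 (SE, adjusted p = 0.99). Without RERE ZT16 mouse 1 the difference of EpiRE from RERE had an adjusted p of 0.053. Reads over the whole gene do not tell a functional Arntl transcript from one that carries the stop cassette, so these levels do not check the genotype labels.

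Nr1d1, the receptor that represses Arntl, moved the other way. It was 17.3, 18.04, 22.5 and 22.5 RPKM in the ZT16 RERE mice, against 59.3, 65.7, 88.95 and 90.3 RPKM in the ZT12 RERE mice. It was 47.1, 47.9, 20.5 and 33.3 RPKM in the ZT16 EpiRE mice, against 65.5, 44.5, 50.2 and 47.7 RPKM in the ZT12 EpiRE mice. In BRE it was low at both times, with 4.92, 3.87, 3.51 and 3.75 RPKM in the ZT16 BRE mice, against 3.66, 3.43, 3.303 and 4.68 RPKM in the ZT12 BRE mice. In WT it was 17.2, 16.8, 19.4 and 24.2 RPKM in the ZT16 WT mice, against 67.8, 67.4, 79.5 and 68.2 RPKM in the ZT12 WT mice. In RERE and WT every ZT16 mouse lay below every ZT12 mouse, in EpiRE only 2 of the 4 ZT16 mice did, and in BRE the groups overlapped. Nr1d1 fell, with a log2 step of -1.91 ± 0.20 (SE, adjusted p = 6.2e-05) in RERE and -1.88 ± 0.13 (SE, adjusted p = 1.2e-07) in WT, and the step was -0.55 ± 0.35 (SE, adjusted p = 0.48) in EpiRE and 0.09 ± 0.13 (SE, adjusted p = 0.81) in BRE. The difference from WT was 1.33 ± 0.32 (SE, adjusted p = 0.024) in EpiRE and 1.97 ± 0.32 (SE, adjusted p = 9.2e-05) in BRE. In EpiRE that call was lost without 5 of the 16 mice, with an adjusted p of up to 0.074 without EpiRE ZT16 mouse 2. Differences use a spread shared by all 96 libraries. For EpiRE the SE of the difference (0.32) was below that of the step (0.35), so it may be too small.

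The E-box is the site that BMAL1 binds with its partner, and the RRE is the site of the Nr1d1 and Ror receptors. Promoters of 2 targets and of Arntl are shown for these letters, 250 bases before to 50 after the start, from the RefSeq annotation of GRCm38.p6, with matches in capitals (CACGTG for the E-box in Ciart and Per1, TAGGTCA for the RRE in Arntl). They lie at chr3:95882179-95882478 (minus strand), chr11:69098699-69098998 (plus strand) and chr7:113207261-113207560 (plus strand).
Ciart: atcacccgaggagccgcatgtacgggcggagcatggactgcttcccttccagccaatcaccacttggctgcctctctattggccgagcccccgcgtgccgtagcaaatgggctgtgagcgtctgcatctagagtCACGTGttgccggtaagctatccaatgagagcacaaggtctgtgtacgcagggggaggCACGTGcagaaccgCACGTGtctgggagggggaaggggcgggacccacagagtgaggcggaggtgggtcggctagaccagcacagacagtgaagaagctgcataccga
Per1: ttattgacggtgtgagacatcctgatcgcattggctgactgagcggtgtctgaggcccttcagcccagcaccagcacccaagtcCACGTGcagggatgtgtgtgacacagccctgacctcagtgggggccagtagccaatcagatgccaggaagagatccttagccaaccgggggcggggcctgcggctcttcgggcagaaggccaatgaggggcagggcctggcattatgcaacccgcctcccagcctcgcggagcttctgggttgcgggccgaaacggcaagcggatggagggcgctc
Arntl: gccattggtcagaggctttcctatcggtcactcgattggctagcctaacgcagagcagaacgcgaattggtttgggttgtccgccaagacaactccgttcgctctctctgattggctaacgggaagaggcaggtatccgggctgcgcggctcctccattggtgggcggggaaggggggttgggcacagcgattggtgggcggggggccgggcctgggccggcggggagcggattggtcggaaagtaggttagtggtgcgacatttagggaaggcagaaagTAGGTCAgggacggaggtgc
Ciart held 3 E-box matches, at -116, -58 and -44 from its start, Per1 held 1 at -166, and Arntl held 1 match to the RRE letters at 30. Per1 and Arntl have 2 windows each, and in each case the window not shown held no more matches. Other spellings of these sites were not searched. Of the other clock genes that fell in WT, Nr1d1, Nr1d2, Dbp, Cry2 and Per3 had no E-box match in their windows, and Tef had 1. An E-box stood in 12.2% and an RRE in 2.24% of the 9017 tested genes with a promoter window, counting both strands. A gene with several windows was counted if any of them held the letters.

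Ciart, a BMAL1 repressor, was 1.55, 1.71, 3.22 and 2.05 RPKM in the ZT16 RERE mice, against 8.24, 9.37, 8.21 and 9.13 RPKM in the ZT12 RERE mice, and 1.501, 1.82, 1.96 and 2.96 RPKM in the ZT16 WT mice, against 10.3, 8.001, 8.998 and 9.96 RPKM in the ZT12 WT mice. No mouse of one time reached the other time in either genotype. Ciart fell, with a log2 step of -2.09 ± 0.34 (SE, adjusted p = 0.0083) in RERE and -2.22 ± 0.25 (SE, adjusted p = 4.8e-05) in WT, and its step was -0.199 ± 0.36 (SE, adjusted p = 0.84) in EpiRE and -0.58 ± 0.25 (SE, adjusted p = 0.25) in BRE. The difference from WT was 2.02 ± 0.44 (SE, adjusted p = 0.013) for EpiRE and 1.64 ± 0.44 (SE, adjusted p = 0.028) for BRE. The EpiRE difference had an adjusted p of 0.05005 without EpiRE ZT16 mouse 2, and the BRE difference was lost without 4 of 16 mice (up to 0.073 without BRE ZT12 mouse 3). Dbp was 14.9, 19.2, 28.2 and 22.3 RPKM in the ZT16 RERE mice, against 60.5, 76.4, 81.2 and 88.8 RPKM in the ZT12 RERE mice, and 18.8, 19.4, 24.4 and 24.1 RPKM in the ZT16 WT mice, against 68.3, 63.96, 90.1 and 70.5 RPKM in the ZT12 WT mice. Its log2 step was -1.88 ± 0.26 (SE, adjusted p = 0.0023) in RERE, -0.86 ± 0.55 (SE, adjusted p = 0.48) in EpiRE, 0.07 ± 0.17 (SE, adjusted p = 0.91) in BRE and -1.75 ± 0.31 (SE, adjusted p = 0.0018) in WT. Nr1d2, the partner receptor of Nr1d1, fell in RERE (-0.96 ± 0.17 SE, adjusted p = 0.012) and WT (-1.21 ± 0.15 SE, adjusted p = 0.00015), and Npas2, an alternative partner of BMAL1, rose in RERE (1.44 ± 0.23 SE, adjusted p = 0.0065) and WT (0.68 ± 0.19 SE, adjusted p = 0.026). The WT call of Npas2 was lost without 4 of 8 mice (adjusted p up to 0.08 without WT ZT12 mouse 3). BRE minus WT was 1.83 ± 0.51 (SE, adjusted p = 0.033) for Dbp, lost without 5 of 16 mice (adjusted p up to 0.07 without BRE ZT12 mouse 3), and 1.09 ± 0.28 (SE, adjusted p = 0.021) for Nr1d2, lost without 3 of 16 mice (adjusted p up to 0.073 without BRE ZT12 mouse 3).

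Per1, a clock repressor that also answers to glucocorticoid and other acute signals, was called in WT and in no other genotype. It was 38.1, 26.7, 42.5 and 20.2 RPKM in the ZT16 RERE mice, against 93.9, 86.1, 66.4 and 70.4 RPKM in the ZT12 RERE mice. It was 35.8, 58.6, 51.4 and 36.9 RPKM in the ZT16 EpiRE mice, against 30.5, 25.8, 52.5 and 67.5 RPKM in the ZT12 EpiRE mice. It was 17.3, 43.2, 14.3 and 18.5 RPKM in the ZT16 BRE mice, against 56.8, 42.2, 35.3 and 50.2 RPKM in the ZT12 BRE mice, and 21.7, 18.1, 15.7 and 19.7 RPKM in the ZT16 WT mice, against 101, 72.6, 80.3 and 82.2 RPKM in the ZT12 WT mice. The times did not overlap in RERE and WT, overlapped throughout in EpiRE, and overlapped in BRE through 1 mouse, ZT16 mouse 2. The log2 step was -1.36 ± 0.43 (SE, adjusted p = 0.15) in RERE, 0.13 ± 0.37 (SE, adjusted p = 0.92) in EpiRE, -1.11 ± 0.36 (SE, adjusted p = 0.11) in BRE and -2.16 ± 0.32 (SE, adjusted p = 0.00054) in WT. Without BRE ZT16 mouse 2 the BRE step was -1.45 with an adjusted p of 0.048. EpiRE minus WT was 2.29 ± 0.54 (SE, adjusted p = 0.022), a call lost without 3 of 16 mice (up to 0.063 without WT ZT12 mouse 1).

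By group, 2 of 3 core activators rose in RERE, 0 in EpiRE, 0 in BRE and 3 in WT, Clock being the third. Of 11 tested repressors and feedback receptors, 3 fell in RERE, 0 in EpiRE, 0 in BRE and 8 in WT, where Per1, Cry2, Per2, Per3 and Bhlhe40 joined Nr1d1, Ciart and Nr1d2. The WT call of Per2 was lost without 3 of 8 mice (adjusted p up to 0.063 without WT ZT12 mouse 1). Bhlhe41 was below the level tested. Of 4 bZIP factors, Dbp fell in RERE, none was called in EpiRE or BRE, and Dbp and Tef fell in WT. Over all tested genes, 0.725% were called in RERE, 0.115% in EpiRE, 1.94% in BRE and 15.5% in WT. The absence of clock calls in EpiRE and BRE is near those shares. RERE and WT were called apart for no clock gene, and the median step difference of the 11 repressors and receptors was 0.17 between RERE and WT. 

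The EpiRE mice at ZT16 were unlike each other. The median SD of the 18 tested clock genes between the 4 mice was 0.23 in RERE, 0.49 in EpiRE, 0.21 in BRE and 0.19 in WT at ZT16 (log2). At ZT12 it was 0.14 in RERE, 0.26 in EpiRE, 0.27 in BRE and 0.16 in WT. EpiRE ZT16 mouse 3 had the highest Arntl of its group (20.5 RPKM) and the lowest Nr1d1 (20.5 RPKM). Its Per2 was 0.687 RPKM, where the 3 other EpiRE mice of that time had 9.71, 12.7 and 4.99 RPKM. Its Dbp was 4.91 RPKM, and the other 3 had 34.7, 35.4 and 23.4 RPKM. Without this mouse the EpiRE step of Arntl was 0.16 (adjusted p = 0.82), that of Nr1d1 -0.28 (adjusted p = 0.86) and that of Per2 -0.50 (adjusted p = 0.69), against 0.33, -0.55 and -1.41 with it. None of these 3 genes was called in EpiRE with or without this mouse. The spread behind a step difference is shared by all genotypes, so SEs of EpiRE differences in clock genes may be too small.

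**Figure D3:**
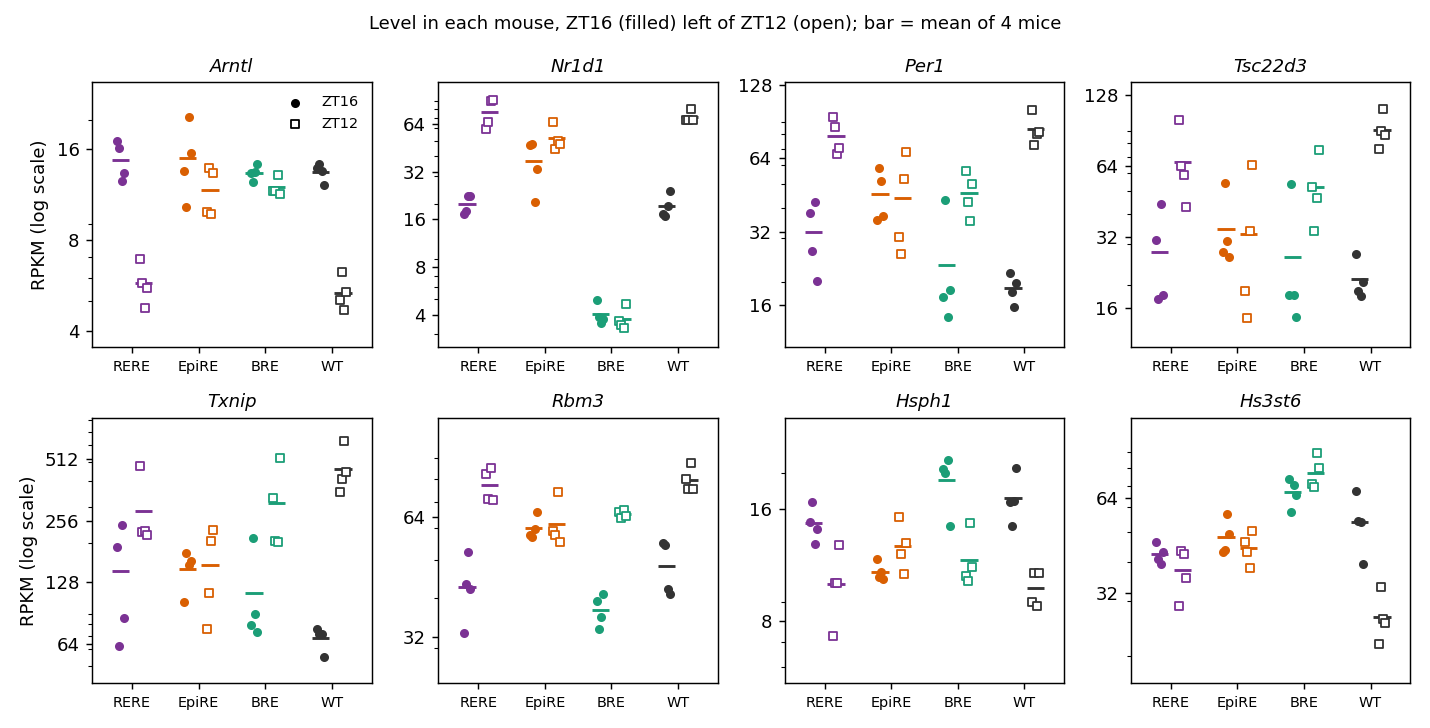
Level of 8 genes in each mouse in RPKM on a log scale, by genotype, with ZT16 filled and left of ZT12 open, and a bar at the mean of the 4 mice. Arntl and Nr1d1 separate the times in RERE and WT, Rbm3 separates them in RERE, BRE and WT, and Hs3st6 separates them in WT.

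Genes that glucocorticoid hormone induces fell together in WT. The list holds 11 genes, all tested. In RERE 1 was lower (Ddit4), in EpiRE none, in BRE none, and in WT 10. Of all tested genes, 0.305% were lower in RERE, 0.107% in EpiRE, 1.17% in BRE and 5.78% in WT. The absence of calls in EpiRE and BRE is near those shares. The median step of the list was -0.57 in RERE, 0.01 in EpiRE, -0.65 in BRE and -1.43 in WT, and over all tested genes it was 0 in RERE, -0.02 in EpiRE, -0.01 in BRE and 0.05 in WT (log2). Steps were negative for 10 of 11 in RERE, 5 of 11 in EpiRE, 11 of 11 in BRE and 11 of 11 in WT. Dusp1 was the WT member that missed the test (-0.25 ± 0.26 SE, adjusted p = 0.55).

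Tsc22d3, which encodes the anti-inflammatory protein GILZ, was 31.1, 17.5, 44.2 and 18.2 RPKM in the ZT16 RERE mice, against 99.9, 63.98, 58.4 and 42.8 RPKM in the ZT12 RERE mice. It was 27.8, 54.5, 30.7 and 26.3 RPKM in the ZT16 EpiRE mice, against 18.96, 14.6, 33.9 and 64.4 RPKM in the ZT12 EpiRE mice. It was 18.3, 53.9, 18.2 and 14.7 RPKM in the ZT16 BRE mice, against 52.3, 33.9, 46.9 and 75.03 RPKM in the ZT12 BRE mice, and 27.2, 18.9, 18.1 and 20.8 RPKM in the ZT16 WT mice, against 75.2, 89.6, 111 and 86.8 RPKM in the ZT12 WT mice. WT mice were apart by time, and in the 3 other genotypes the times overlapped. The log2 step was -1.298 ± 0.51 (SE, adjusted p = 0.27) in RERE, 0.25 ± 0.39 (SE, adjusted p = 0.80) in EpiRE, -1.14 ± 0.34 (SE, adjusted p = 0.084) in BRE and -2.099 ± 0.17 (SE, adjusted p = 6.2e-07) in WT. EpiRE minus WT was 2.35 ± 0.54 (SE, adjusted p = 0.019), lost without 2 of 16 mice (up to 0.059 without EpiRE ZT12 mouse 2), and the difference from WT was 0.8005 ± 0.54 (SE, adjusted p = 0.51) for RERE and 0.96 ± 0.54 (SE, adjusted p = 0.30) for BRE.

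In BRE and EpiRE single mice lay far from the others of their group. BRE ZT16 mouse 2 had 53.9 RPKM of Tsc22d3, 24.4 of Fkbp5, a chaperone of the glucocorticoid receptor, and 82.6 of Zbtb16, a transcription factor. The other 3 BRE mice of that time had 14.7 to 18.3 RPKM of Tsc22d3, and 3.56, 3.52 and 3.41 RPKM of Fkbp5. Without that mouse 3 of the 11 genes were lower in BRE and their median was -0.80, with Tsc22d3 at -1.56 (adjusted p = 0.021) and Fkbp5 at -1.55 (adjusted p = 0.037). The BRE count was 1 without ZT12 mouse 1 or 3 and 2 without ZT12 mouse 2. EpiRE ZT12 mouse 4 had 64.4 RPKM of Tsc22d3, 48.5 of Fkbp5 and 98.8 of Zbtb16, where the other 3 EpiRE mice of ZT12 had 2.18 to 4.41 RPKM of Fkbp5 and 15.2 to 19.1 RPKM of Zbtb16. Without it no member was called in EpiRE and the median was 0.11. In WT, 9 or 10 of the 11 stayed called whichever mouse was left out, and in RERE Ddit4 was lost without any 1 of the 8 mice (up to 0.12 without ZT12 mouse 3). In WT, Zbtb16 had a log2 step of -2.27 ± 0.24 (SE, adjusted p = 2.2e-05), Fkbp5 -2.08 ± 0.37 (SE, adjusted p = 0.0017), Glul, glutamine synthetase, -1.53 ± 0.19 (SE, adjusted p = 0.00013), and Ddit4, an inhibitor of mTOR signalling, -1.11 ± 0.19 (SE, adjusted p = 0.0017).

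Genes that FOXO factors induce and insulin restrains also fell in WT. Of 11 tested, 0 were lower in RERE, 0 in EpiRE, 1 in BRE and 9 in WT. Of all tested genes, 0.305% were lower in RERE, 0.107% in EpiRE, 1.17% in BRE and 5.78% in WT. The absence of calls in RERE and EpiRE is near those shares. The list medians were -0.13 in RERE, 0.01 in EpiRE, -0.12 in BRE and -0.59 in WT. The WT count was 6 without WT ZT16 mouse 2 or 4 or without ZT12 mouse 1 or 3. The largest was Txnip, an inhibitor of glucose uptake and of thioredoxin, whose promoter (chr3:96557707-96558006, plus strand) is shown because it held a match to the FOXO site (GTAAACA) and to the glucocorticoid receptor site, both in capitals, in an otherwise lower-case window of the same table.
Txnip: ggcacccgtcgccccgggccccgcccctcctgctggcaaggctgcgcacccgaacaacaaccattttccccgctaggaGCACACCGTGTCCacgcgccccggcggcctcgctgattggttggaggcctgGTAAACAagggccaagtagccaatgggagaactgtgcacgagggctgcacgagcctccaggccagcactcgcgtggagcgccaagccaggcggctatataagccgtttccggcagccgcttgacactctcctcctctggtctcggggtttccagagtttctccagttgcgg
The FOXO letters stood in 3.15% and the glucocorticoid receptor letters in 0.299% of the 9017 genes with a window, on either strand.

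Txnip was 189.9, 62.5, 243 and 85.6 RPKM in the ZT16 RERE mice, against 478, 226, 228 and 217 RPKM in the ZT12 RERE mice. It was 102, 178, 155 and 162 RPKM in the ZT16 EpiRE mice, against 75.6, 113, 205 and 231 RPKM in the ZT12 EpiRE mice. It was 79.2, 212, 89.9 and 73.3 RPKM in the ZT16 BRE mice, against 330.03, 205, 203 and 522 RPKM in the ZT12 BRE mice, and 75.9, 71.7, 71.6 and 54.9 RPKM in the ZT16 WT mice, against 356, 412, 631 and 443 RPKM in the ZT12 WT mice. The highest WT mouse at ZT16 had 75.9 RPKM and the lowest WT mouse at ZT12 had 356 RPKM, while the times overlapped in the 3 other genotypes. The log2 step was -1.11 ± 0.51 (SE, adjusted p = 0.36) in RERE, 0.04 ± 0.38 (SE, adjusted p = 1.00) in EpiRE, -1.504 ± 0.36 (SE, adjusted p = 0.039) in BRE and -2.73 ± 0.25 (SE, adjusted p = 4.7e-06) in WT. EpiRE minus WT was 2.77 ± 0.56 (SE, adjusted p = 0.007). RERE minus WT was 1.62 ± 0.56 (SE, adjusted p = 0.21) and BRE minus WT 1.22 ± 0.56 (SE, adjusted p = 0.20). The BRE call was lost without 5 of its 8 mice (up to 0.12 without ZT12 mouse 4). In WT, Sesn1, a stress-induced restraint on mTOR, fell, with a log2 step of -0.98 ± 0.10 (SE, adjusted p = 1.4e-05), Fbxo32, a ubiquitin ligase, fell with one of -0.67 ± 0.15 (SE, adjusted p = 0.0062), and Irs2, an insulin receptor substrate, fell with one of -1.74 ± 0.45 (SE, adjusted p = 0.016), lost without 1 of 8 mice (adjusted p up to 0.055 without WT ZT12 mouse 1).

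Of the cold-inducible RNA-binding proteins, whose mRNAs rise when temperature falls, Rbm3 was lower at ZT16 in RERE, BRE and WT. Rbm3 was 32.7, 43.5, 52.4 and 42.1 RPKM in the ZT16 RERE mice, against 82.2, 71.1, 85.3 and 70.7 RPKM in the ZT12 RERE mice. It was 57.8, 57.04, 59.8 and 65.9 RPKM in the ZT16 EpiRE mice, against 59.2, 57.7, 74.1 and 55.5 RPKM in the ZT12 EpiRE mice. It was 39.5, 33.4, 35.97 and 40.95 RPKM in the ZT16 BRE mice, against 66.1, 63.6, 66.7 and 64.5 RPKM in the ZT12 BRE mice, and 55.1, 54.5, 42.1 and 40.98 RPKM in the ZT16 WT mice, against 80.04, 75.3, 87.6 and 75.3 RPKM in the ZT12 WT mice. The times did not overlap in RERE, BRE and WT and overlapped in EpiRE. Rbm3 fell, with a log2 step of -0.87 ± 0.13 (SE, adjusted p = 0.0048) in RERE, -0.804 ± 0.07 (SE, adjusted p = 1.8e-06) in BRE and -0.73 ± 0.17 (SE, adjusted p = 0.0083) in WT, and its step in EpiRE was -0.03 ± 0.11 (SE, adjusted p = 0.95). EpiRE minus RERE was 0.84 ± 0.18 (SE, adjusted p = 0.039), EpiRE minus BRE 0.77 ± 0.18 (SE, adjusted p = 0.054) and EpiRE minus WT 0.71 ± 0.18 (SE, adjusted p = 0.032). The 2 called differences were lost without 10 of 16 mice (up to 0.27 without RERE ZT16 mouse 1) and 9 of 16 (up to 0.081 without WT ZT16 mouse 4). With the 8 libraries alone the adjusted p of the step was 0.077 in RERE and 0.068 in BRE.

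Cirbp, the other member, was 49.9, 49.6, 58.7 and 70.4 RPKM in the ZT16 EpiRE mice, against 41.5, 53.6, 50.9 and 42.1 RPKM in the ZT12 EpiRE mice. It was 24.4, 24.2, 29.3 and 29.6 RPKM in the ZT16 BRE mice, against 39.6, 46.5, 48.2 and 56.6 RPKM in the ZT12 BRE mice, and 39.03, 46.3, 41.8 and 32.7 RPKM in the ZT16 WT mice, against 43.3, 52.6, 58.5 and 44.2 RPKM in the ZT12 WT mice. Of these 3 genotypes, the BRE mice alone were apart by time. The log2 step was -0.65 ± 0.21 (SE, adjusted p = 0.15) in RERE, 0.27 ± 0.16 (SE, adjusted p = 0.42) in EpiRE, -0.82 ± 0.14 (SE, adjusted p = 0.0088) in BRE and -0.31 ± 0.18 (SE, adjusted p = 0.24) in WT. EpiRE minus BRE was 1.098 ± 0.25 (SE, adjusted p = 0.054).

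Heat shock chaperones moved upward in few members. Of 17 tested, 0 were higher in RERE, 0 in EpiRE, 4 in BRE and 4 in WT. The counts in BRE and WT stand against unlike shares, as 0.766% of all tested genes were higher in BRE and 9.74% in WT. The list medians were 0.13 in RERE, -0.10 in EpiRE, 0.21 in BRE and 0.16 in WT. Stip1, a co-chaperone of HSP90, and Hsph1, a nucleotide exchange factor for HSP70, were called in BRE and WT, Hspa8 and Hsp90ab1 in BRE, and Ahsa1 and Hspa4 in WT. Hsph1 was 20.5, 20.04, 21.6 and 14.4 RPKM in the ZT16 BRE mice, against 10.6, 10.2, 14.7 and 11.2 RPKM in the ZT12 BRE mice, and 16.7, 14.4, 16.8 and 20.6 RPKM in the ZT16 WT mice, against 9.02, 10.8, 8.78 and 10.8 RPKM in the ZT12 WT mice. The 2 times touched in BRE, through 14.4 RPKM at ZT16 and 14.7 at ZT12, and were apart in WT. Hsph1 rose by a log2 step of 0.71 ± 0.16 (SE, adjusted p = 0.027) in BRE and 0.797 ± 0.24 (SE, adjusted p = 0.03) in WT, against 0.56 ± 0.19 (SE, adjusted p = 0.19) in RERE and -0.22 ± 0.16 (SE, adjusted p = 0.54) in EpiRE, and EpiRE minus WT was -1.02 ± 0.27 (SE, adjusted p = 0.038). Each of the 2 calls was lost without 5 of 8 mice (up to 0.10 without BRE ZT16 mouse 3 and 0.085 without WT ZT16 mouse 4). Hspa8, the constitutive HSP70 of the cytosol, was 292, 312, 272 and 302 RPKM in the ZT16 BRE mice, against 258, 225, 229 and 215 RPKM in the ZT12 BRE mice, and rose by a log2 step of 0.35 ± 0.07 (SE, adjusted p = 0.012). The list count was 1 in BRE without ZT16 mouse 3 and 2 without ZT16 mouse 2, and 2 in WT without ZT16 mouse 4 or ZT12 mouse 1 or 3.

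The Hsph1 promoter (chr5:149636266-149636565, minus strand) is shown because it held the heat shock element beside an E-box, both in capitals. The heat shock element stood in 0.555% of tested genes with a window. Hsph1 has 2 windows, and the one not shown held no more matches.
Hsph1: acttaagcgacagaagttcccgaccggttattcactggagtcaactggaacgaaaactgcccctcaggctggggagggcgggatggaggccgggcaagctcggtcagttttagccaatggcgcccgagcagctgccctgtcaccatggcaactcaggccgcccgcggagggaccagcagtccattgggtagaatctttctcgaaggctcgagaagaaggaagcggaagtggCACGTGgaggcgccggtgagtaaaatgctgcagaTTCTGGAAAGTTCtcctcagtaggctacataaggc
The heat shock element was at 15 and the E-box at -19 from the start.

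Chaperones and stress genes of the endoplasmic reticulum moved in WT. Of 18 tested, none was called in RERE, EpiRE or BRE, and in WT 10 were higher and 2 lower. Of all tested genes, 9.74% were higher and 5.78% lower in WT. Only 0.725% were called in RERE, 0.115% in EpiRE and 1.94% in BRE, so the absence of calls there is near those shares. The medians of the 18 genes were 0.15 in RERE, -0.01 in EpiRE, 0.21 in BRE and 0.36 in WT. The 10 were mostly folding factors such as Calr (calreticulin), Hsp90b1, Pdia3, Pdia4, Pdia6, Dnajc3, Creld2 and Sdf2l1, with Asns and Trib3, which belong to the amino acid response. The 2 that fell, Herpud1 (-0.67 ± 0.09 SE, adjusted p = 0.0002) and Dnajb9 (-1.12 ± 0.27 SE, adjusted p = 0.012), serve the removal of misfolded proteins. Hspa5, the main chaperone of the compartment, had a WT step of -0.14 ± 0.18 (SE, adjusted p = 0.63). Sdf2l1 was 15.1, 11.8, 12.8 and 17.6 RPKM in the ZT16 WT mice, against 5.83, 7.97, 6.401 and 6.94 RPKM in the ZT12 WT mice. All 4 ZT16 mice were above all 4 ZT12 mice, and it rose by a log2 step of 1.07 ± 0.25 (SE, adjusted p = 0.0087). The number higher in WT ranged from 2 (without ZT16 mouse 4) to 9, and it was 3 without ZT12 mouse 1 or 3, 4 without ZT12 mouse 2 or ZT16 mouse 3, and 5 without ZT16 mouse 1. In BRE it was 1 without ZT12 mouse 4 and 2 without ZT16 mouse 4. No member was called apart between a reconstituted genotype and WT, except Asns in BRE.

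The promoter of Hsp90b1 (chr10:86705395-86705694, minus strand) is shown because it held the endoplasmic reticulum stress element at 2 places, in capitals, 1 on each strand.
Hsp90b1: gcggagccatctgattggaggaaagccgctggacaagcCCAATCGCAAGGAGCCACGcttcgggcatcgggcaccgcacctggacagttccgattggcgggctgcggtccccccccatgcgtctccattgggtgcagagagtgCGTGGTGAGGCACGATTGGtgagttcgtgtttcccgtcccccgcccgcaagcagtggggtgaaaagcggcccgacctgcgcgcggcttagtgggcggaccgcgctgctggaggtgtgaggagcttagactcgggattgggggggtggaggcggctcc
The element stood in 16 (0.177%) of the 9017 genes with a window and in 6 (0.669%) of the 897 such genes higher in WT. For the E-box the share was 24.1% of the 29 genes with a window that were lower in RERE, 17.3% of 104 in BRE and 14.7% of 531 in WT, against 12.2% of all. These shares describe letters in windows and were not tested.

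Some mitotic genes were higher at ZT16 in RERE and WT. All 28 genes of the G2 and mitosis list had positive steps in RERE and in WT, 22 of 28 in EpiRE and 16 of 28 in BRE. The test was passed by 2 in RERE (Top2a and Prc1), 0 in EpiRE, 0 in BRE and 9 in WT, and the medians were 0.79 in RERE, 0.11 in EpiRE, 0.04 in BRE and 0.49 in WT. Of all tested genes, 0.42% were higher in RERE, 0.00823% in EpiRE, 0.766% in BRE and 9.74% in WT. The counts of 0 in EpiRE and BRE are near those shares. Ttk and Espl1 were called apart between BRE and WT, with negative differences, and no member was called apart between other genotypes. Top2a, the topoisomerase that untangles sister chromatids, was 15.7, 26.02, 16.5 and 27.1 RPKM in the ZT16 RERE mice, against 13.5, 8.51, 9.698 and 11.9 RPKM in the ZT12 RERE mice, and 16.8, 17.4, 20.6 and 21.1 RPKM in the ZT16 WT mice, against 12.4, 10.4, 10.8 and 16.8 RPKM in the ZT12 WT mice. The 4 ZT16 mice were above the 4 ZT12 mice in RERE, and in WT too, though the closest mice both had 16.8 RPKM. Top2a rose by a log2 step of 0.94 ± 0.21 (SE, adjusted p = 0.048) in RERE and 0.61 ± 0.19 (SE, adjusted p = 0.038) in WT. The RERE call was lost without 5 of 8 mice (up to 0.18 without ZT16 mouse 4) and the WT call without 6 of 8 (up to 0.11 without ZT12 mouse 3). The RERE count was 0 without ZT16 mouse 2 or 4 or without ZT12 mouse 2, 3 or 4, 1 without ZT16 mouse 1, and 6 without ZT12 mouse 1. The WT count was 3 without ZT16 mouse 3 or 4 or ZT12 mouse 1 or 2, 4 without ZT12 mouse 3, 5 without ZT16 mouse 2, and 17 without ZT12 mouse 4. The list median stayed between 0.66 and 0.91 in RERE and between 0.41 and 0.64 in WT in all of these.

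Within a group the mice differed in their mitotic genes. The median deviation of the list from its group mean ran from -0.33 to 0.33 among the RERE mice at ZT16 and from -0.55 to 0.50 among the BRE mice at ZT16. The median SD between mice was 0.42 in RERE, 0.39 in EpiRE, 0.44 in BRE and 0.10 in WT at ZT16. At ZT12 it was 0.31 in RERE, 0.47 in EpiRE, 0.39 in BRE and 0.34 in WT. Wee1, the kinase that holds back entry into mitosis and a known target of BMAL1, fell, with a log2 step of -1.26 ± 0.27 (SE, adjusted p = 0.036) in RERE and -1.58 ± 0.32 (SE, adjusted p = 0.0037) in WT, and had steps of -0.53 ± 0.30 (SE, adjusted p = 0.42) in EpiRE and -1.0001 ± 0.31 (SE, adjusted p = 0.096) in BRE. The RERE call was lost without any 1 of the 8 mice (adjusted p of 0.055 to 0.12). Of the other cell cycle lists, 14 genes of G1 and S-phase entry had 1 lower in RERE, 0 called in EpiRE, 0 in BRE, and 2 higher and 2 lower in WT. No gene was called of 10 origin licensing genes in any genotype (medians -0.23 in RERE, -0.12 in EpiRE, 0.03 in BRE and -0.09 in WT) and of 25 replication genes 2, Pola2 and Gins2, were lower in WT. Over all tested genes 9.74% were higher and 5.78% lower in WT. The differences between these lists were not tested.

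Some differentiation genes of the upper epidermis were higher at ZT16 in WT. Of 29 tested, none was called in RERE, EpiRE or BRE, while in WT 7 were higher and 1, Tgm3, was lower. Of all tested genes, 9.74% were higher and 5.78% lower in WT. Only 0.725% were called in RERE, 0.115% in EpiRE and 1.94% in BRE, so the absence of calls there is near those shares. The list medians were -0.01 in RERE, 0.26 in EpiRE, -0.01 in BRE and 0.61 in WT. The summed level of the list ran from 10880 to 14490 RPKM at ZT16 and 9909 to 15510 at ZT12 in RERE, and from 14150 to 16780 at ZT16 and 10450 to 12340 at ZT12 in EpiRE. It ran from 14190 to 19710 at ZT16 and 14840 to 20770 at ZT12 in BRE, and from 12800 to 18660 at ZT16 and 8219 to 11250 at ZT12 in WT. The times were apart in EpiRE and WT and overlapped in RERE and BRE. Krt10, a keratin of the suprabasal layers, averaged 7379 RPKM at ZT16 and 4293 RPKM at ZT12 in WT and rose by a log2 step of 0.78 ± 0.20 (SE, adjusted p = 0.015), and its adjusted p was 0.054 without ZT16 mouse 4. Ivl (involucrin) rose by a log2 step of 1.21 ± 0.38 (SE, adjusted p = 0.04), lost without 7 of 8 mice (up to 0.11 without ZT16 mouse 4). The number higher was 3 without WT ZT16 mouse 4 and 4 without WT ZT12 mouse 1.

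In these bulk samples more cells of a layer and more RNA per cell cannot be told apart. Of 12 basal keratinocyte genes, Dst and Trp63 were lower in WT, against 5.78% of all tested genes, and no step was called elsewhere. The list medians were 0.06 in RERE, -0.10 in EpiRE, 0.17 in BRE and -0.21 in WT. BRE minus WT was called for 4 of the 12, Itga6, Col17a1, Dst and Lamb3, all positive, against 0.692% of all tested genes. The summed level of the 12 genes ran from 13580 to 16020 RPKM at ZT16 and 15440 to 16930 at ZT12 in WT. The part of these shifts in other WT steps was not tested.

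Few metabolic genes were called. Of 26 oxidative phosphorylation genes, 0 were called in RERE, 0 in EpiRE, 4 lower in BRE (Cox6c, Cox5a, Uqcrfs1 and Cox5b) and 3 higher in WT (Cycs, Ndufa4 and Cyc1). The medians were -0.06 in RERE, -0.07 in EpiRE, -0.15 in BRE and 0.09 in WT. After median-of-ratios rescaling the counts were 6 lower in BRE and 0 in WT. Cox6c fell, with a log2 step of -0.45 ± 0.09 (SE, adjusted p = 0.012) in BRE, lost without 1 of 8 mice (adjusted p up to 0.0504 without BRE ZT16 mouse 3). Cyc1, cytochrome c1, was called apart between EpiRE and WT and between BRE and WT. Between BRE and WT, Cox5a and Atp5b were called apart too, and all 3 differences were negative, against 2.54% of all tested genes. Of 16 glycolysis genes, Hk1 and Pfkp were higher in RERE, none was called in EpiRE, Aldoa and Pfkm were lower in BRE, and in WT Hk1 was higher and Gpi1 and Pfkfb3 lower. Over all tested genes in WT 9.74% were higher and 5.78% lower, so the WT counts of both lists are near the background. In BRE 1.17% of all tested genes were lower, and the distance of the BRE counts from that share was not tested. The BRE calls of Aldoa and Pfkm and the Hk1 call in WT did not pass after rescaling.

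Few cholesterol genes were called. Of 15, 0 were called in RERE, 0 in EpiRE and 0 in BRE, and in WT Sc5d and Mvd were higher and Hmgcs1 was lower, near the 15.5% of all tested genes called there. Steps were negative for 14 of 15 in RERE and 15 of 15 in BRE, and positive for 14 of 15 in EpiRE and 12 of 15 in WT, and the medians were -0.34 in RERE, 0.19 in EpiRE, -0.21 in BRE and 0.40 in WT. No member was called apart between genotypes. Of 16 NRF2 antioxidant genes, 4 were higher in WT (G6pdx, Taldo1, Srxn1 and Gclm) and none was called elsewhere. G6pdx, Taldo1 and Gclm were called apart between BRE and WT, all with negative differences, against 2.54% of all tested genes. Of 20 immediate early genes, which also respond to tissue dissociation, 4 were lower in WT (Klf4, Nr4a2, Nr4a1 and Klf6), with a median of -0.62 and 20 of 20 steps negative, and 0 were called in RERE, EpiRE or BRE.

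**Figure D4:**
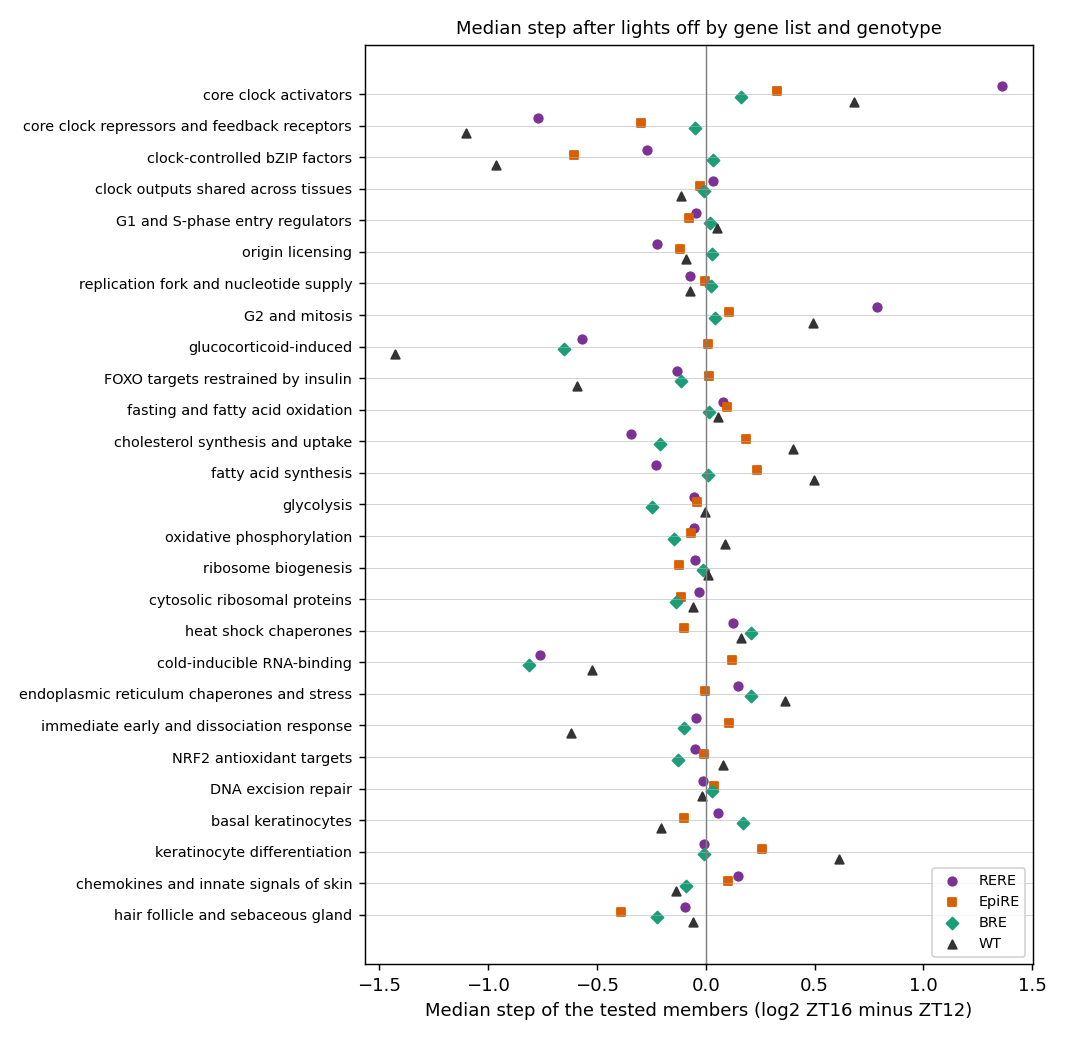
Median step of the tested members of each gene list in log2 units, by genotype. WT lies farthest from 0 for the glucocorticoid, FOXO and differentiation lists, RERE and WT stand apart from EpiRE and BRE for G2 and mitosis, and EpiRE stands apart from the other genotypes for the cold-inducible pair.

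Tests of the steps against each other found few genes. RERE minus WT was called for 7 genes (0.0576%), all 7 negative, EpiRE minus WT for 170 (1.4%), 32 positive and 138 negative, and BRE minus WT for 393 (3.24%), 84 positive and 309 negative (2.54%). These 3 comparisons share the WT mice. EpiRE minus RERE was called for 4 genes (0.0329%), BRE minus RERE for 2 (0.0165%), 1 positive and 1 negative (0.00823% each), and EpiRE minus BRE for 3 (0.0247%). The excess of negative differences against WT was not seen after rescaling, where RERE minus WT had 0 calls, EpiRE minus WT 43 positive and 43 negative, and BRE minus WT 145 positive and 126 negative. At an unadjusted p below 0.05 RERE minus WT held 1704 genes. A step difference carries the errors of both steps, so a low count does not show that the steps were equal.

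The count for RERE minus WT rested on single mice. It was 51 without RERE ZT12 mouse 1, 17 without WT ZT12 mouse 2, 16 without WT ZT16 mouse 3, and 0 without RERE ZT16 mouse 1, RERE ZT12 mouse 4 or WT ZT12 mouse 1 or 3. It was 1 without WT ZT16 mouse 1 or 4, 2 without RERE ZT16 mouse 2 or ZT12 mouse 3, and 3 without WT ZT16 mouse 2 or ZT12 mouse 4. For EpiRE minus WT it was lowest without WT ZT12 mouse 1 (25), EpiRE ZT16 mouse 2 (39), WT ZT16 mouse 4 (45) and WT ZT12 mouse 3 (48), and highest, 290, without EpiRE ZT12 mouse 4. It was 56 and 72 without EpiRE ZT12 mouse 2 and 1, 74 and 111 without EpiRE ZT16 mouse 3 and 1, 81 without EpiRE ZT12 mouse 3, and 84 and 101 without WT ZT16 mouse 3 and 1. For BRE minus WT it was 63 and 259 without BRE ZT12 mouse 3 and 4, 73 without BRE ZT16 mouse 2, 90 and 253 without WT ZT12 mouse 1 and 3, 177 and 214 without WT ZT16 mouse 1 and 4, and 655 without BRE ZT12 mouse 2.

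Hs3st6, a heparan sulfate sulfotransferase, was called in all 3 comparisons with WT. It was 46.4, 40.9, 39.5 and 42.96 RPKM in the ZT16 RERE mice, against 29.1, 43.6, 42.6 and 35.7 RPKM in the ZT12 RERE mice. It was 43.1, 43.9, 56.9 and 49.3 RPKM in the ZT16 EpiRE mice, against 46.4, 43.1, 38.2 and 50.4 RPKM in the ZT12 EpiRE mice. It was 73.99, 57.7, 70.7 and 65.7 RPKM in the ZT16 BRE mice, against 70.97, 69.3, 89.05 and 79.7 RPKM in the ZT12 BRE mice, and 67.6, 54.2, 53.9 and 39.5 RPKM in the ZT16 WT mice, against 21.95, 33.3, 26.4 and 25.6 RPKM in the ZT12 WT mice. The WT mice were apart by time and the times overlapped in the other genotypes. It rose by a log2 step of 0.99 ± 0.14 (SE, adjusted p = 0.00034) in WT. The difference from WT was -0.81 ± 0.17 (SE, adjusted p = 0.036) in RERE, -0.88 ± 0.17 (SE, adjusted p = 0.0055) in EpiRE and -1.199 ± 0.17 (SE, adjusted p = 1.7e-05) in BRE. The RERE difference was lost without 12 of 16 mice (up to 0.16 without WT ZT12 mouse 1). The other genes named for RERE minus WT were Vma21 (-0.59 ± 0.12 SE, adjusted p = 0.019), an assembly factor of the vacuolar proton pump, Wars (-0.55 ± 0.11 SE, adjusted p = 0.019), the tryptophan tRNA synthetase, Abhd17b (-0.73 ± 0.16 SE, adjusted p = 0.036), a depalmitoylating enzyme, Asna1 (-0.44 ± 0.10 SE, adjusted p = 0.036), which delivers tail-anchored proteins, and Gcat (-1.08 ± 0.24 SE, adjusted p = 0.036), an enzyme of threonine breakdown. The calls were lost without 6 of 16 mice for Wars, 7 for Vma21, 11 for Abhd17b, 11 for Gcat and 12 for Asna1, and the other called gene is a predicted one.

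Between BRE and WT some genes moved in opposite directions, and 4 genes were called with opposite signs, all higher in WT and lower in BRE: Mtx2, Abhd17a, Ptpa and Atp5d. Mtx2, metaxin 2 of the mitochondrial outer membrane, was 17.3, 16.96, 15.98 and 15.9 RPKM in the ZT16 BRE mice, against 20.9, 17.8, 20.6 and 20.3 RPKM in the ZT12 BRE mice, and 21.1, 20.97, 23.3 and 23.4 RPKM in the ZT16 WT mice, against 16.95, 17.99, 16.2 and 19.2 RPKM in the ZT12 WT mice. BRE mice lay lower at ZT16 and WT mice higher, with no overlap of times in either. Mtx2 fell, with a log2 step of -0.26 ± 0.06 (SE, adjusted p = 0.036), in BRE and rose by a log2 step of 0.34 ± 0.06 (SE, adjusted p = 0.0025) in WT, and BRE minus WT was -0.5996 ± 0.10 (SE, adjusted p = 9.1e-05). The BRE call was lost without 6 of 8 mice (up to 0.11 without ZT16 mouse 3). Ptpa, an activator of protein phosphatase 2A, had steps of -0.17 ± 0.04 (SE, adjusted p = 0.031) in BRE, lost without 6 of 8 mice (adjusted p up to 0.089 without BRE ZT12 mouse 3), and 0.19 ± 0.04 (SE, adjusted p = 0.0063) in WT. Rraga, a GTPase that brings mTORC1 to the lysosome, differed between EpiRE and WT by -0.55 ± 0.11 (SE, adjusted p = 0.0055), and Kdm3a, a histone demethylase, by 0.61 ± 0.12 (SE, adjusted p = 0.0045).

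Pdk1, a kinase that limits pyruvate entry into mitochondria, was unlike in EpiRE. It was 10.3, 9.42, 13.6 and 12.2 RPKM in the ZT16 RERE mice, against 15.4, 14.9, 14.8 and 13.1 RPKM in the ZT12 RERE mice. It was 13.4, 13.2, 14.3 and 14.9 RPKM in the ZT16 EpiRE mice, against 11.9, 11.7, 11.6 and 13.2 RPKM in the ZT12 EpiRE mice. It was 10.7, 11.1, 11.4 and 11.8 RPKM in the ZT16 BRE mice, against 14.5, 16.7, 15.1 and 13.5 RPKM in the ZT12 BRE mice, and 11.2, 12.03, 11.1 and 10.5 RPKM in the ZT16 WT mice, against 13.5, 14.5, 12.99 and 13.6 RPKM in the ZT12 WT mice. The EpiRE mice at ZT16 were level with or above those at ZT12, the times overlapped in RERE, and the ZT16 mice of BRE and WT were all below the ZT12 mice. The step was -0.36 ± 0.10 (SE, adjusted p = 0.094) in RERE, 0.21 ± 0.07 (SE, adjusted p = 0.21) in EpiRE, -0.404 ± 0.09 (SE, adjusted p = 0.022) in BRE and -0.28 ± 0.08 (SE, adjusted p = 0.023) in WT. EpiRE differed by 0.57 ± 0.12 (SE, adjusted p = 0.039) from RERE, 0.61 ± 0.12 (SE, adjusted p = 0.014) from BRE and 0.49 ± 0.12 (SE, adjusted p = 0.029) from WT. The BRE call was lost without 4 of 8 mice (adjusted p up to 0.063 without BRE ZT16 mouse 3), and the WT call was lost without 2 of 8 mice (adjusted p up to 0.071 without WT ZT16 mouse 4). The difference from RERE was lost without 10 of 16 mice (up to 0.20 without RERE ZT16 mouse 1) and that from BRE without 6 of 16 (up to 0.084 without EpiRE ZT16 mouse 4). Parva, an adaptor between integrins and actin, differed between EpiRE and RERE by -0.77 ± 0.16 (SE, adjusted p = 0.039), lost without 9 of 16 mice (up to 0.17 without EpiRE ZT16 mouse 4).

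The 14 genes called in EpiRE included Derl1, a channel protein of endoplasmic reticulum quality control, and Hoxa5, a homeobox gene. Derl1 was 7.44, 8.204, 7.42 and 7.71 RPKM in the ZT16 EpiRE mice, against 9.15, 9.44, 10.3 and 9.56 RPKM in the ZT12 EpiRE mice, with no overlap, and fell, with a log2 step of -0.32 ± 0.04 (SE, adjusted p = 0.0054). Hoxa5 was 20.3, 16.2, 15.9 and 20.9 RPKM in the ZT16 EpiRE mice, against 23.9, 29.01, 27.98 and 25.9 RPKM in the ZT12 EpiRE mice, also with no overlap, and fell, with a log2 step of -0.55 ± 0.10 (SE, adjusted p = 0.027), lost without 5 of 8 mice (up to 0.17 without ZT16 mouse 3). The steps of the others were -0.64 for Iffo2, -0.54 for Tsr3, -0.35 for Josd2, -0.33 for Dpf2, -0.297 for Mon1a, -0.29 for Armc5, -0.28 for Apba3, -0.43 for Ddx20, -1.65 for Hs3st1, -0.19 for Ppp1r14c and 0.59 for Rgs9, and 1 predicted gene makes up the count. The calls of these 11 genes were lost without 3 to 7 of the 8 mice, with an adjusted p of up to 0.18 without ZT16 mouse 3.

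Among the genes called in BRE that averaged at least 5 RPKM and whose mice did not overlap between times, those with the larger rises included Ly6i (0.72 ± 0.17 SE, adjusted p = 0.034), Syne2 (0.62 ± 0.10 SE, adjusted p = 0.0058), which links the nucleus to actin, Itpr2 (0.59 ± 0.15 SE, adjusted p = 0.0498), a calcium channel, Efemp1 (0.58 ± 0.13 SE, adjusted p = 0.029), a matrix protein, Ctsl (0.55 ± 0.11 SE, adjusted p = 0.012), the protease cathepsin L, and Igf1r, the receptor for insulin-like growth factor. Igf1r was 15.96, 21.6, 17.7 and 17.8 RPKM in the ZT16 BRE mice, against 12.9, 13.6, 12.2 and 12.4 RPKM in the ZT12 BRE mice. It was 13.2, 14.7, 15.7 and 12.4 RPKM in the ZT16 WT mice, against 15.2, 14.004, 15.4 and 15.3 RPKM in the ZT12 WT mice. BRE mice were apart by time and WT mice were not. Igf1r rose by a log2 step of 0.51 ± 0.08 (SE, adjusted p = 0.0074) in BRE, and BRE minus WT was 0.61 ± 0.17 (SE, adjusted p = 0.032). Those with the larger falls included Stfa3, Stfa1, Ctgf (-1.16 ± 0.29 SE, adjusted p = 0.045), a matrix growth factor, Car12 (-1.03 ± 0.22 SE, adjusted p = 0.02), a carbonic anhydrase, and Endou (-0.88 ± 0.21 SE, adjusted p = 0.038), a ribonuclease. Of those calls, Ly6i, Itpr2 and Endou were lost without 7 of 8 mice each, Ctgf without 6, Car12 and Efemp1 without 4 and Ctsl without 1, with the highest adjusted p 0.15 for Ctgf without ZT16 mouse 3. Stfa3, a cysteine protease inhibitor, was 12.4, 1.54, 4.56 and 7.88 RPKM in the ZT16 BRE mice, against 50.4, 16.7, 33.4 and 12.9 RPKM in the ZT12 BRE mice, and its step was -2.26 ± 0.54 (SE, adjusted p = 0.036), lost without 4 of 8 mice (adjusted p up to 0.11 without BRE ZT16 mouse 3). It and Stfa1 belong to a family of near-identical copies whose reads may be split, so both are uncertain.

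By the same limits on level and overlap, the larger steps of WT outside the groups above included those of Tuba8 (1.29 ± 0.15 SE, adjusted p = 5e-05), an alpha tubulin, Cdr2 (1.26 ± 0.30 SE, adjusted p = 0.01), Serpinb12 (1.14 ± 0.29 SE, adjusted p = 0.014), a serine protease inhibitor of the epidermis, Gal3st4 (1.05 ± 0.17 SE, adjusted p = 0.00079), a sulfotransferase, and Aadacl2 (1.05 ± 0.21 SE, adjusted p = 0.0042), which rose, and Fam46b (-2.199 ± 0.45 SE, adjusted p = 0.0047) and Thbs1 (-2.02 ± 0.64 SE, adjusted p = 0.038), thrombospondin 1, which fell. The Thbs1 call was lost without 7 of 8 mice (adjusted p up to 0.13 without WT ZT12 mouse 1), and that of Serpinb12 without ZT16 mouse 4 (adjusted p = 0.0502). Fam46b also fell in RERE (-1.69 ± 0.37 SE, adjusted p = 0.036), lost without 6 of 8 mice (adjusted p up to 0.13 without RERE ZT16 mouse 4). In RERE, Lonrf3 (1.202 ± 0.19 SE, adjusted p = 0.0057), Il33 (0.65 ± 0.14 SE, adjusted p = 0.044), an alarm cytokine stored in keratinocyte nuclei, Micall2 (0.62 ± 0.13 SE, adjusted p = 0.034) and Rdh12 (0.57 ± 0.11 SE, adjusted p = 0.018), a retinal reductase, were among the largest that rose. In RERE the call of Il33 was lost without 8 of 8 mice (adjusted p up to 0.12 without RERE ZT12 mouse 2), that of Micall2 lost without 7 of 8 mice (adjusted p up to 0.12 without RERE ZT16 mouse 4) and that of Rdh12 lost without 2 of 8 mice (adjusted p up to 0.056 without RERE ZT12 mouse 4). Il33 rose in WT too (0.76 ± 0.17 SE, adjusted p = 0.0078) and had steps of 0.13 ± 0.14 (SE, adjusted p = 0.72) in EpiRE and 0.44 ± 0.16 (SE, adjusted p = 0.17) in BRE.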

How the data were processed

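Each library is poly(A) RNA of dispase-separated back-skin epidermis from 1 mouse, and 4 mice were sampled per genotype and time. Per the submitters' processing notes, reads were handled with Trimmomatic 0.36, HISAT2 2.2.1, SAMtools 1.3.1, featureCounts 1.6.0 and edgeR on mm10, with no roles given. The deposited log2 values behave as the authors' log2 RPKM with a prior count of 2, which is inferred from the values, so depth was estimated from the lowest value of each library. Of 22384 genes in all 4 tables, 12144 were tested, those averaging 1 RPKM or more across the 96 libraries, and 10240 were not. Steps were fitted with limma 3.58.1 in R 4.3.3 (mean-variance trend) on the 24 libraries of a genotype and step differences on all 96, and calls used Benjamini-Hochberg adjusted p below 0.05. The fit was tested on simulated data with 200 changed genes. The tables were deposited separately, so each step stays within a table.

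Named genes were the core clock genes, the largest called steps and the most significant step differences, and other list members were named after their values were seen. The members and lists were chosen with earlier results of these data known. Lists are described by counts and medians, with no test of a list. Promoters come from RefSeq, GRCm38.p6. Alternatives were the ZT12 and ZT16 libraries alone, rescaling, other filters on low values, log2(RPKM + 1), no trend, a replicate block and leaving out each mouse. One alternative, leaving out genes at the floor in at least 48 libraries, was chosen after seeing the data.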

Additional observations from a re-analysis of the deposited data

Results flagged for a closer look

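In 9 of 106 groups of 4 mice examined, 1 mouse lay far from the other 3, by a gap that chance gives in about 1 of 20 independent groups. These groups share mice across genes, so they are not independent. Arntl was 13.2 RPKM in BRE ZT12 mouse 3. Nr1d1 was 79.5 RPKM in WT ZT12 mouse 3. BRE ZT16 mouse 2 appears 3 times, with Per1 at 43.2 RPKM, Tsc22d3 at 53.9 RPKM and Txnip at 212 RPKM. Tsc22d3 was 54.5 RPKM in EpiRE ZT16 mouse 2, and Txnip was 478 RPKM in RERE ZT12 mouse 1. Pdk1 was 13.2 RPKM in EpiRE ZT12 mouse 4. Igf1r was 14.0 RPKM in WT ZT12 mouse 2, below the other 3.

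The 25 step differences that follow are a selection from those called by limma's test of the difference. They are the most significant of each pair among called genes averaging at least 5 RPKM, without predicted genes, and many appear above. Values are in log2 units, the first genotype minus the second. RERE minus WT was -0.59 for Vma21, -0.55 for Wars, -0.81 for Hs3st6, -0.73 for Abhd17b, -0.44 for Asna1 and -1.08 for Gcat. EpiRE minus WT was -0.53 for Mtx2, -1.01 for Arntl, 0.61 for Kdm3a, -0.55 for Rraga, -0.88 for Hs3st6 and 2.77 for Txnip. BRE minus WT was -1.20 for Hs3st6, -0.60 for Mtx2, -1.17 for Arntl, -0.36 for Ptpa, 1.97 for Nr1d1 and -0.82 for Fam234b. EpiRE minus RERE was -1.04 for Arntl, -0.77 for Parva, 0.84 for Rbm3 and 0.57 for Pdk1. BRE minus RERE was -1.20 for Arntl and 2.00 for Nr1d1. EpiRE minus BRE was 0.61 for Pdk1.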

How the results depend on the processing

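Of 228 steps and step differences of named genes, 82 kept their call under every alternative, and none reversed. With limma on the ZT12 and ZT16 libraries alone, 112 calls were lost, and called genes numbered 10 in RERE, 0 in EpiRE, 0 in BRE and 1094 in WT, with 0 for RERE minus WT, 30 for EpiRE minus WT, 0 for EpiRE minus RERE, 1 for BRE minus RERE and 6 for EpiRE minus BRE. At an unadjusted p below 0.05 that fit held 1671 genes for RERE minus WT and 1069 for EpiRE minus RERE. With no filter on low values the counts were 49 in RERE, 2 in EpiRE, 123 in BRE and 1226 in WT, 3 for RERE minus WT, 59 for EpiRE minus WT, 180 for BRE minus WT and 5 for EpiRE minus BRE. After rescaling they were 5 in EpiRE, 0 for RERE minus WT, 86 for EpiRE minus WT, 1 for EpiRE minus RERE and 10 for EpiRE minus BRE. At a mean of at least 5 RPKM, EpiRE minus BRE had 1. Without genes at the floor EpiRE had 9. The cause of these changes was not tested.

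Leaving out 1 mouse gave 23 to 87 called genes in RERE, 1 to 42 in EpiRE, 54 to 397 in BRE and 993 to 1836 in WT. It gave 0 to 51 for RERE minus WT, 25 to 290 for EpiRE minus WT, 63 to 655 for BRE minus WT, 0 to 10 for EpiRE minus RERE, 2 to 4 for BRE minus RERE and 0 to 20 for EpiRE minus BRE. Deviations of mice of the same replicate number correlated at -0.19 to 0.42, with positive and negative values in each genotype. The labels give the numbers no shared source, so they were not taken to pair the mice, and with a replicate block the EpiRE count was 1 and the others stayed within 1.5 times. Rescaling turned the near-zero list medians of NRF2 targets (0.011), endoplasmic reticulum genes (0.016) and replication genes (0.016) in EpiRE, of differentiation (0.004) and clock outputs (0.005) in BRE and of differentiation in RERE (6.8e-05) positive, and that of ribosome biogenesis in WT negative (-0.033). With 12.1 to 20.8 M reads and 4 mice per time, genes below 1 RPKM were not tested.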

Other observations

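The cold-inducible pair was followed over the whole day as group means in RPKM. Rbm3 at ZT0, ZT4, ZT8, ZT12, ZT16 and ZT20 averaged 51.1, 65.6, 72.5, 77.3, 42.7 and 53.8 RPKM in RERE. In EpiRE it averaged 61.6, 64.4, 70.1, 61.6, 60.1 and 52.0 RPKM at the same times. In BRE it averaged 56.6, 71.5, 74.9, 65.2, 37.5 and 49.2 RPKM, and in WT 50.9, 67.2, 81.0, 79.6, 48.2 and 54.4 RPKM. The lowest mean was at ZT16 in RERE, BRE and WT and at ZT20 in EpiRE. Il33, the alarm cytokine, averaged 67.5, 53.7, 36.6, 29.1, 45.9 and 48.1 RPKM in RERE over the same times, and 53.0, 51.8, 34.6, 24.3, 41.2 and 53.2 RPKM in WT. It averaged 52.6, 48.7, 43.7, 41.6, 45.9 and 53.0 RPKM in EpiRE and 70.4, 66.0, 55.1, 52.6, 72.6 and 67.0 RPKM in BRE. Its lowest mean was at ZT12 in all 4 genotypes.

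Of all tested genes 0.725% were called in RERE, 0.115% in EpiRE, 1.94% in BRE and 15.5% in WT. The lists that follow stand against those shares, and their distance from them was not tested. Of 14 G1 and S-phase entry genes, Ccnd2 (cyclin D2) fell in RERE (-0.72 ± 0.14 SE, adjusted p = 0.019), lost without 4 of 8 mice (adjusted p up to 0.069 without RERE ZT16 mouse 1), and in WT (-0.68 ± 0.19 SE, adjusted p = 0.021), lost without 2 of 8 mice (adjusted p up to 0.057 without WT ZT16 mouse 1), and its step was 0.28 ± 0.12 (SE, adjusted p = 0.24) in BRE. In WT Rb1 (0.49 ± 0.11 SE, adjusted p = 0.0061), the retinoblastoma protein that restrains S-phase entry, and E2f2 (0.61 ± 0.15 SE, adjusted p = 0.013) rose, and E2f1 (-0.29 ± 0.09 SE, adjusted p = 0.029) fell, lost without 4 of 8 mice (adjusted p up to 0.081 without WT ZT16 mouse 3). Of 12 hair follicle and sebaceous gland genes, the transcription factors Lhx2 (-1.23 ± 0.28 SE, adjusted p = 0.031) and Tbx1 (-1.73 ± 0.40 SE, adjusted p = 0.034) fell in BRE, and Lrig1, a stem cell marker, fell in WT (-0.47 ± 0.12 SE, adjusted p = 0.013). The Lhx2 call was lost without 4 of 8 mice (adjusted p up to 0.11 without BRE ZT16 mouse 3), that of Tbx1 lost without 6 of 8 mice (adjusted p up to 0.11 without BRE ZT16 mouse 3) and that of Lrig1 lost without 1 of 8 mice (adjusted p up to 0.051 without WT ZT12 mouse 3). Of 15 fasting and fatty acid oxidation genes, Hadha and Acadl rose in RERE, none was called in EpiRE or BRE, and in WT Hadha and Hadhb rose while Pdk4 (-1.94 ± 0.41 SE, adjusted p = 0.0053) and Ucp2 fell. After rescaling that WT count was 0 higher and 3 lower. Of 9 fatty acid synthesis genes, Acaca (0.498 ± 0.11 SE, adjusted p = 0.0053) and Acly (0.61 ± 0.15 SE, adjusted p = 0.012) rose and Acsl3 (-0.83 ± 0.17 SE, adjusted p = 0.0041) fell in WT, with none called elsewhere. All 20 cytosolic ribosomal protein genes had negative steps in EpiRE and in BRE, as did 11 in RERE and 19 in WT.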
